A study of Homo sapiens with 30 samples.

Results

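The genes described here encode the nuclear-encoded subunits of oxidative phosphorylation complexes I, III, IV and V. They were chosen by symbol (NDUFA, NDUFB, NDUFC, NDUFS and NDUFV followed by a number, UQCR, COX4 to COX8, and ATP5F, ATP5M and ATP5P) and by a mean level of at least 1 TPM (RSEM's length-normalised measure of transcript abundance) over the 30 libraries. Of the 60617 genes listed, 176 names fitted the pattern, 95 of them were pseudogene names and were left out, and 6 further names lay under the level, which left 75 members. These were 36 genes of complex I, 9 of complex III, 13 of complex IV and 17 of complex V, all annotated as protein coding. NDUFA4, first described as a complex I subunit and now assigned to complex IV, was counted in complex IV. The symbols ATP5MPL and ATP5MD are those of the files; the current names are ATP5MJ and ATP5MK.

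Both lines, HCT116 and SW480, derive from human colorectal cancers. Cells of each were transfected with 10 nM of siBRD8-36 or siBRD8-6 (against BRD8), of siTIP60-11 or siTIP60-2 (against TIP60, whose gene is listed as KAT5), or of a control siRNA (siControl), and RNA was taken after 48 h. Each of the 10 groups held 3 replicate libraries. Nothing in the labels says whether replicates were separate cultures, so the p-values speak only to the variation among these libraries, and that may be technical. A list of 5 epithelial markers summed to between 2490 and 5070 TPM in HCT116, where VIL1 averaged under 1 TPM, and to between 2640 and 4480 TPM in SW480. Fibroblast markers summed to at most 29.2 TPM, leukocyte markers to at most 3.63 TPM and endothelial markers to at most 0.99 TPM in any library; COL1A2, COL3A1, DCN, LUM and PTPRC were listed at 0 throughout SW480, and CDH5 in both lines.

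BRD8 is a bromodomain subunit, and TIP60 the catalytic acetyltransferase, of the TIP60 (NuA4) chromatin complex, which acetylates histones and places the variant H2A.Z. Oxidative phosphorylation passes electrons from NADH through complex I, ubiquinone, complex III and cytochrome c to oxygen at complex IV, and the proton gradient so built drives ATP synthesis by complex V. Its subunits come from both genomes, mitochondrial DNA encoding a few hydrophobic core proteins and nuclear genes the rest. Many of the nuclear genes have promoters without a TATA box that are known targets of NRF1, of the ETS factor GABP and of YY1.

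Promoter sequences from RefSeq (GRCh38.p14, 250 bases before to 50 after the annotated start) matched 62 of the 75 members by symbol. Both strands were searched for the NRF1 core (GCGC, any base, then TGCGC), an ETS core (CCGGAAGT) and a YY1 core (AAGATGGC); the motifs were counted separately, overlaps included. The NRF1 letters stood in 14 of 62 members (22.6%), against 6.98% of 27305 genes with such a window. The ETS letters stood in 11 members (17.7%), against 4.95% of all genes, and the YY1 letters in 11 members (17.7%), against 3.52%. Below are the members, 1 per complex, that were called lower after BRD8 depletion in SW480 and held the most kinds of these motifs. They are followed by UQCRC2, which moved unlike the others. UQCRC2 held none of the 3 motifs, and neither did many other members, among them COX7B and ATP5MG, which were called lower. Motif letters are in capitals, and every sequence reads 5′ to 3′ along the gene's strand.
NDUFA9 (complex I, chr12:4648864-4649163, plus strand): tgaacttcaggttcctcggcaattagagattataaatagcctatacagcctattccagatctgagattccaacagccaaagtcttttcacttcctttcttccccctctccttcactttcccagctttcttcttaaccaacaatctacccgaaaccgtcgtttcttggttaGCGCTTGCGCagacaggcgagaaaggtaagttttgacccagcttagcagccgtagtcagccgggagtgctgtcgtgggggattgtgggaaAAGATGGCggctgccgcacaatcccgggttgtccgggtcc
UQCRC1 (complex III, chr3:48609597-48609896, minus strand): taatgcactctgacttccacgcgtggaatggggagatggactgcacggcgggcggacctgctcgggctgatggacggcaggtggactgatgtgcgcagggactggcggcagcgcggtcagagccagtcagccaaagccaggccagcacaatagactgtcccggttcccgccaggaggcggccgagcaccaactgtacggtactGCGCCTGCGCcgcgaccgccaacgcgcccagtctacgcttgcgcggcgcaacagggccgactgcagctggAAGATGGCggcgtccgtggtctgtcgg
COX8A (complex IV, chr11:63974370-63974669, plus strand): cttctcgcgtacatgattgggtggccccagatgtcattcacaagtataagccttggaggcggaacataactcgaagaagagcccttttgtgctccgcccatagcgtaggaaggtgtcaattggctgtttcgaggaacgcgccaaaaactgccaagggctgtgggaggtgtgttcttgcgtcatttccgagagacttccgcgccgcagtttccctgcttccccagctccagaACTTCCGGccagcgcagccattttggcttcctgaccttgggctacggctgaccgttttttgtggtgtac
ATP5PO (complex V, chr21:33915755-33916054, minus strand): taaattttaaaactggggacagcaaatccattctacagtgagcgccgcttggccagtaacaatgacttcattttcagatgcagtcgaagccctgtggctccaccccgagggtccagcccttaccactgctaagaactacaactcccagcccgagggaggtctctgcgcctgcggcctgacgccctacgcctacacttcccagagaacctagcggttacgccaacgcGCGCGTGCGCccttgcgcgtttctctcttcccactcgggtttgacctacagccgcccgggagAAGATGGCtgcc
UQCRC2 (complex III, chr16:21953111-21953410, plus strand): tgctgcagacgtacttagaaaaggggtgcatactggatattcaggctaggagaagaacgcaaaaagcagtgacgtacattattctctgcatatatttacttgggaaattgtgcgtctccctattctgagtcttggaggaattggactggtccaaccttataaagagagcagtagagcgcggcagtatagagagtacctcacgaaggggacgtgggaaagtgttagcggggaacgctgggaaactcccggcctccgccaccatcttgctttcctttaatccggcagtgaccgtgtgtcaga
In NDUFA9, UQCRC1 and ATP5PO an NRF1 match lay before the start and a YY1 match after it. COX8A held the ETS letters on the other strand. A match is a run of letters and not a measured binding site, and a window without one says nothing of the factor.

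Depth was 13.4 to 18.6 M counts a library in HCT116 and 7.07 to 11.7 M counts in SW480. The targeted genes were lower in every library of their groups. BRD8 had 5.502, 5.846 and 6.501 CPM with siBRD8-36 and 8.186, 9.178 and 8.838 CPM with siBRD8-6, against 45.23, 38.47 and 42.12 CPM with siControl in HCT116 (CPM, the count scaled to the library total after TMM normalisation). KAT5 had 4.988, 4.725 and 4.702 CPM with siTIP60-11 and 3.533, 3.562 and 3.608 CPM with siTIP60-2, against 48.23, 46.75 and 50.42 CPM with siControl in HCT116. In SW480 the log2 changes were -2.24 and -2.02 for BRD8 with siBRD8-36 and siBRD8-6, and -2.87 and -3.64 for KAT5 with siTIP60-11 and siTIP60-2. KAT5 also lay below every control with siBRD8-36, at 37.21, 40.25 and 39.59 CPM in HCT116. In SW480 it had 29.18, 29.08 and 30.72 CPM with siBRD8-36, against 38.04, 41.6 and 39 CPM with siControl. With siBRD8-6 KAT5 was not below the controls in either line. In 2 groups 1 library stood apart. The members took 1.19% of the counts in HCT116 siControl replicate 2, and 0.955% and 0.909% in replicates 1 and 3, and ribosomal protein genes took 9.81%, against 7.44% and 7.12%. Replicate 2 also had the highest member share in every other HCT116 group, by a smaller margin. With siBRD8-36 it was 1.14%, against 1.02% and 1.07% in replicates 1 and 3. In SW480 siBRD8-36 replicate 3 the members took 0.881% of the counts, against 1.07% and 1.06% in replicates 1 and 2.

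The members were abundant in both lines. Per transcript, the median level was 239 TPM, and 63 of the 75 members averaged at least 100 TPM over the 30 libraries. Complex IV had the highest median at 488.7 TPM, followed by complex V at 412.6 TPM, complex III at 356.7 TPM and complex I at 162.2 TPM. Within complex I the level lay between 27.76 TPM for NDUFV3, an accessory subunit of the NADH-oxidising module, and 462.9 TPM for NDUFB9, an accessory subunit of the membrane arm. Complex V was the most even, between 158.7 TPM for ATP5F1E (the epsilon subunit) and 772.4 TPM for ATP5F1B (the catalytic beta subunit). COX7C, a small structural subunit of complex IV, was the highest member at 791.3 TPM. In complex III, UQCRQ stood at 594.9 TPM and UQCRHL, a near-identical retrocopy of the hinge protein gene UQCRH, at 2.975 TPM. The median coefficient of variation between replicates was 5.52%.

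**Figure D1:**
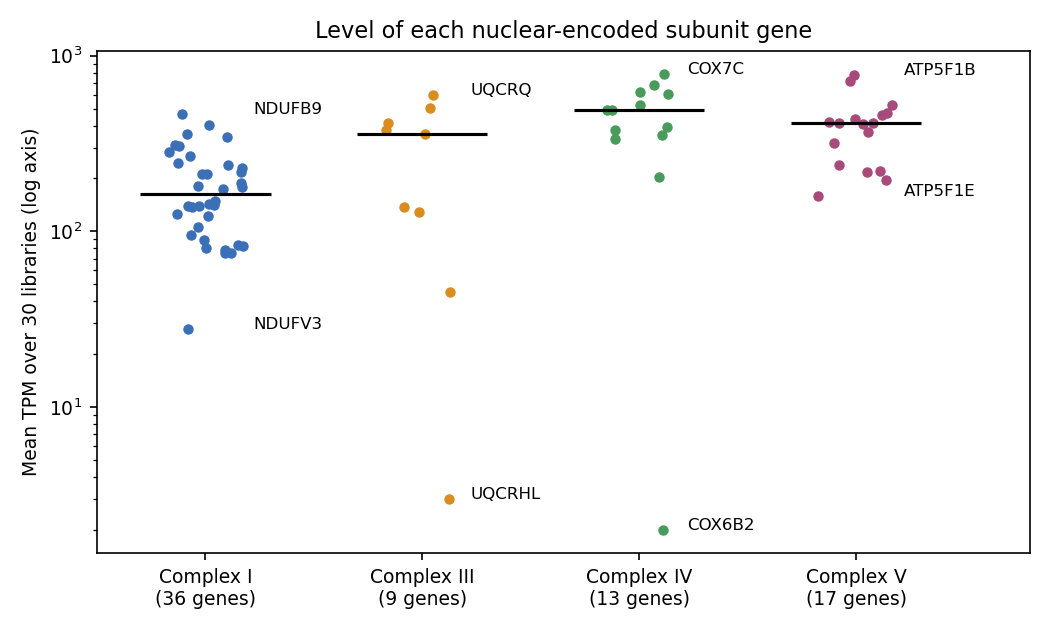
Mean TPM of each of the 75 subunit genes over 30 libraries (vertical axis, log scale) by complex (horizontal axis). Each point is 1 gene, black lines are medians, and the highest and lowest gene of each complex are named; the medians lie between 162.2 TPM (complex I) and 488.7 TPM (complex IV).

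Where a subunit has tissue isoforms, the ubiquitous one was expressed. COX4I1 averaged 677 TPM, against 0.0157 TPM for COX4I2, the isoform known from lung. COX6A1 averaged 621.6 TPM and COX7A2 522.5 TPM, while COX6A2 and COX7A1, the heart and muscle isoforms, were listed at 0 in every library. COX8A averaged 488.7 TPM and COX7B 352.9 TPM, against 0.303 TPM for COX8C and 0.0497 TPM for COX7B2. COX6B1 averaged 491.5 TPM, against 1.984 TPM for COX6B2, a testis isoform that passed the level as the lowest member. COX5A and COX5B, which are different subunits rather than isoforms, averaged 393.1 and 336.5 TPM. The 3 genes of the identical mature subunit c of the ATP synthase ring, ATP5MC3, ATP5MC2 and ATP5MC1, averaged 459.8, 368.3 and 218.5 TPM. Just inside the level of 1 TPM lay COX6B2, UQCRHL (2.975 TPM) and NDUFV3 (27.76 TPM), and just outside it COX8C, ATP5MGL (0.0527 TPM) and COX7B2. Reads shared with close copies make some values less certain: 60 members had a value that was not whole in more than 10% of libraries, 42 have pseudogene names in the files, and the counts on those pseudogenes came to 21.3% of the member's for UQCRFS1, 7.16% for NDUFV2, 4.73% for COX6A1 and 3.73% for NDUFA5. Exons of 45 members overlap those of another gene in GENCODE release 29, 24 of them on the same strand.

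The largest number of lower members in the count fit followed BRD8 depletion in SW480. With length-dependent offsets (a curve on gene length fitted to each library, added after seeing the data) the number was 20 after BRD8 and 21 after TIP60 depletion, and with limma on TPM values 8 after each. For these and the other alternative fits below, the share of all genes called was not counted. A call for a target required the same direction with each of its siRNAs, and that the larger of the 2 p-values, adjusted by Benjamini-Hochberg over all genes tested in edgeR's quasi-likelihood fit, lay under 0.05. In SW480, 41 of the 75 members were lower after BRD8 depletion and 1 was higher, while 14.5% of the 15277 genes tested were called lower and 13.3% higher. Complex I had 15 of 36 lower, complex III 5 of 9, complex IV 10 of 13 and complex V 11 of 17. The median log2 change of the 75 members was -0.31, against a median near 0 over all genes, and the medians of the complexes lay between -0.45 (complex IV) and -0.23 (complex I). With bulk RNA, a decrease in some of the cells and a decrease in all of them cannot be told apart.

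**Figure D2:**
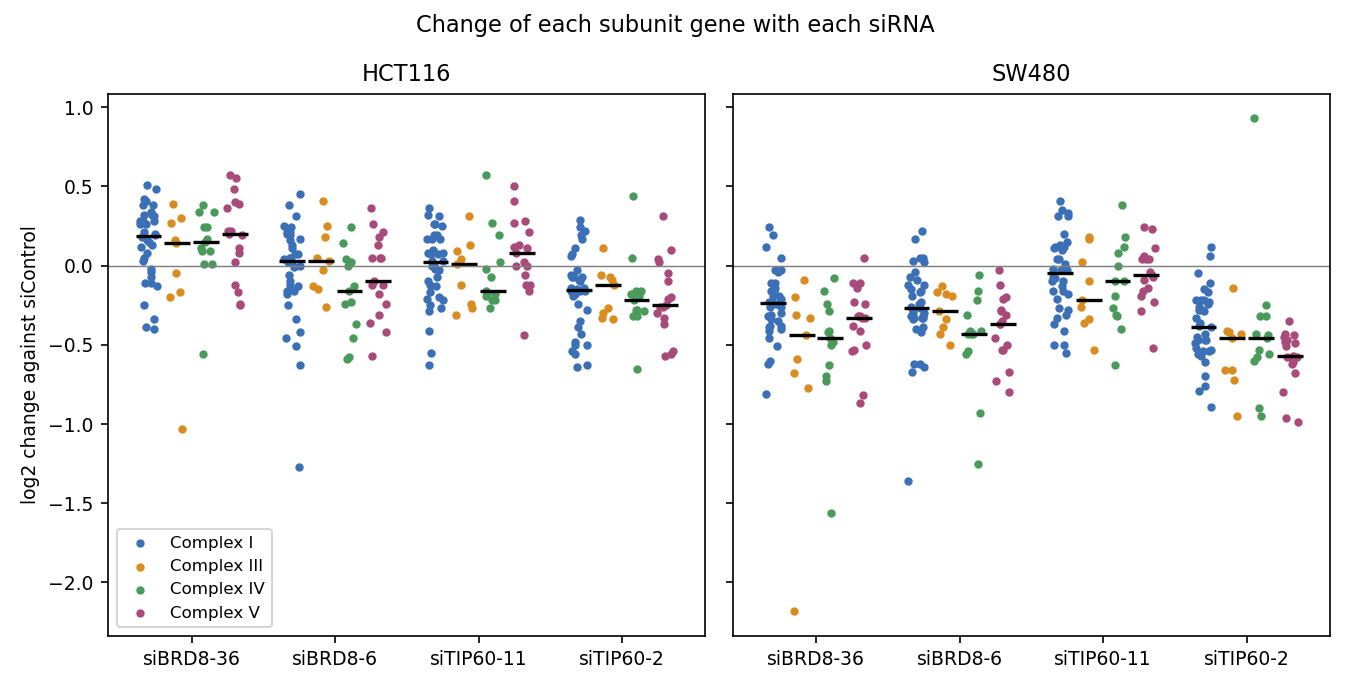
Log2 change of each subunit gene against siControl (vertical axis) with each siRNA (horizontal axis), by line and complex; each point is 1 of 75 genes and black lines are the medians of a complex. In SW480 the medians lie below 0 with every siRNA, nearest to 0 with siTIP60-11; the lowest points there are UQCRC2 (-2.18) and COX6B2 (-1.56), both with siBRD8-36.

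The SW480 decreases were spread over both arms of complex I and over the stalk and membrane parts of complex V. NDUFA9, an accessory subunit of the peripheral arm of complex I, had 142.6, 138.9 and 110.0 CPM with siBRD8-36 and 149.9, 147.9 and 134.6 CPM with siBRD8-6, against 237.3, 232.5 and 215.3 CPM with siControl. All 6 depleted libraries lay below the 3 controls, with log2 changes of -0.81 ± 0.0989 and -0.67 ± 0.0985 (SE; adjusted p = 5.6e-05). Exons of NDUFA9 overlap those of 2 unnamed genes on its strand in GENCODE. COX7A2, the ubiquitous subunit VIIa of complex IV, had 128.4, 125.9 and 98.33 CPM with siBRD8-36 and 100.0, 95.92 and 91.44 CPM with siBRD8-6, against 185.0, 183.6 and 177.8 CPM with siControl. Its log2 changes were -0.63 and -0.93 (adjusted p = 2.35e-07), and no depleted library reached a control. COX7B, another small complex IV subunit, had 166.0, 157.3 and 121.4 CPM with siBRD8-36 and 163.0, 167.5 and 159.8 CPM with siBRD8-6, against 238.4, 247.2 and 238.2 CPM with siControl. That gave log2 changes of -0.70 and -0.56 (adjusted p = 2.67e-05). ATP5PO, the oligomycin sensitivity conferring protein that joins the 2 parts of the ATP synthase, had 249.6, 253.9 and 203.9 CPM with siBRD8-36 and 239.7, 243.5 and 222.3 CPM with siBRD8-6, against 326.8, 348.0 and 345.9 CPM with siControl. Both its log2 changes were -0.53 (adjusted p = 1.03e-06).

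Other decreases lay at a similar size. ATP5MG and ATP5MD, small membrane subunits of complex V, changed by -0.82 and -0.50 with siBRD8-36 and by -0.53 and -0.73 with siBRD8-6 (log2). UQCRH, the hinge protein of complex III, changed by -0.44 and -0.43 with the same siRNAs. COX6B2 had log2 changes of -1.56 and -1.25 (adjusted p = 0.0129), at a level near that of a few reads: 0.4847, 0.8881 and 0.6981 CPM with siBRD8-36 and 0.7211, 0.6677 and 1.096 CPM with siBRD8-6, against 2.746, 0.8433 and 2.54 CPM with siControl. Its control replicate 2 lay within the depleted libraries. Without control replicate 1 the change of COX6B2 was -1.12 (adjusted p = 0.112) and without replicate 3 -1.23 (adjusted p = 0.0709); without siBRD8-6 replicate 2 it was -1.34 (adjusted p = 0.0508).

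TIP60 depletion in SW480 lowered 19 of the 75 members and raised 0 in edgeR (1 at an unadjusted p of 0.05, and 0 in DESeq2), beside 12.4% of all genes called lower and 11.8% higher. The median was -0.26. By complex, 8 of 36 were lower in complex I, 3 of 9 in complex III, 5 of 13 in complex IV and 3 of 17 in complex V. COX7A2L, which links complexes III and IV in supercomplexes, changed most: it had 189.9, 206.3 and 206.8 CPM with siTIP60-11 and 150.8, 159.4 and 172.7 CPM with siTIP60-2, against 311.6, 310.9 and 311.5 CPM with siControl. The log2 changes of COX7A2L were -0.63 ± 0.0769 and -0.95 ± 0.0779 (SE; adjusted p = 1.29e-06). NDUFA9 had 151.5, 155.5 and 160.3 CPM with siTIP60-11 and 105.4, 123.0 and 141.6 CPM with siTIP60-2, against the 215.3 to 237.3 CPM of siControl (log2 -0.55 and -0.89, adjusted p = 0.000428). ATP5F1D, the delta subunit of the rotor, had 42.96, 41.82 and 43.14 CPM with siTIP60-11 and 40.28, 44.94 and 38.35 CPM with siTIP60-2, against 62.2, 60.58 and 60.66 CPM with siControl (log2 -0.52 and -0.57, adjusted p = 0.000101). In each of these 3 genes all 6 depleted libraries lay below all controls. Also lower were COX7B (log2 -0.40 and -0.90), NDUFS5 (-0.41 and -0.56), NDUFA13 (-0.50 and -0.54) and NDUFA8 (-0.37 and -0.47), each given with siTIP60-11 and then siTIP60-2; the last 3 are accessory subunits of complex I.

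Short genes as a class moved with the members in SW480. The median effective length of the members was 622 bases, and 60 of the 75 were under 1000 bases, against medians of 1958 and 1982 bases over the genes tested in HCT116 and SW480. After BRD8 depletion in SW480, the median log2 change of the 2395 other genes under 1000 bases was -0.24, and that of the 2084 genes over 4000 bases was 0.19. After TIP60 depletion these medians were -0.19 and 0.22. Relative to a curve of the log2 change of all genes on effective length, the median of the members was -0.10 after BRD8 depletion, with 51 of 75 below the curve, and -0.08 after TIP60 depletion, with 46 below. With such a curve fitted to each library and carried into the edgeR fit, a setting chosen after seeing the data, 20 members were lower and 5 higher after BRD8 depletion in SW480. Each of the 70 gene-level results picked by the naming rule kept its call. Those were picked as the largest called changes in these data, so their calls say little of the others. On the TPM scale, which divides by length, limma on log2(TPM + 1) called 8 members lower and 6 higher after BRD8 depletion and 8 lower and 2 higher after TIP60 depletion; the median log2 change of all genes there lay 0.26 and 0.20 above that of the count fit. Relative to the curve in SW480, COX7A2L stood at -0.68 in place of -0.79 after TIP60 depletion, and NDUFA9 at -0.47 in place of -0.74 after BRD8 depletion. Some other named decreases lay nearer the curve. After BRD8 depletion UQCRH stood at -0.16 in place of -0.44, and ATP5MD at -0.23 in place of -0.61. After TIP60 depletion NDUFA8 stood at -0.26 in place of -0.42.

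The same pattern held library by library. As deviations from the mean log2 CPM of the line, the medians of the members were 0.26, 0.27 and 0.24 in the 3 SW480 siControl libraries, and those of the other short genes 0.16, 0.20 and 0.17. SW480 siBRD8-36 replicate 3 stood at -0.29 for the members and -0.18 for the other short genes, while replicates 1 and 2 stood at 0.04 and 0.03 for the members. HCT116 siControl replicate 2 stood at 0.30 for the members and 0.24 for the other short genes, while replicates 1 and 3 stood at -0.10 and -0.18 for the members. In SW480 the members took 1.00% ± 0.11 of the counts with siBRD8-36, 0.999% ± 0.0033 with siBRD8-6, 1.14% ± 0.021 with siTIP60-11 and 0.910% ± 0.05 with siTIP60-2, against 1.18% ± 0.015 with siControl (SD, n = 3 each). The part of library make-up in the decrease was not tested beyond these values.

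**Figure D3:**
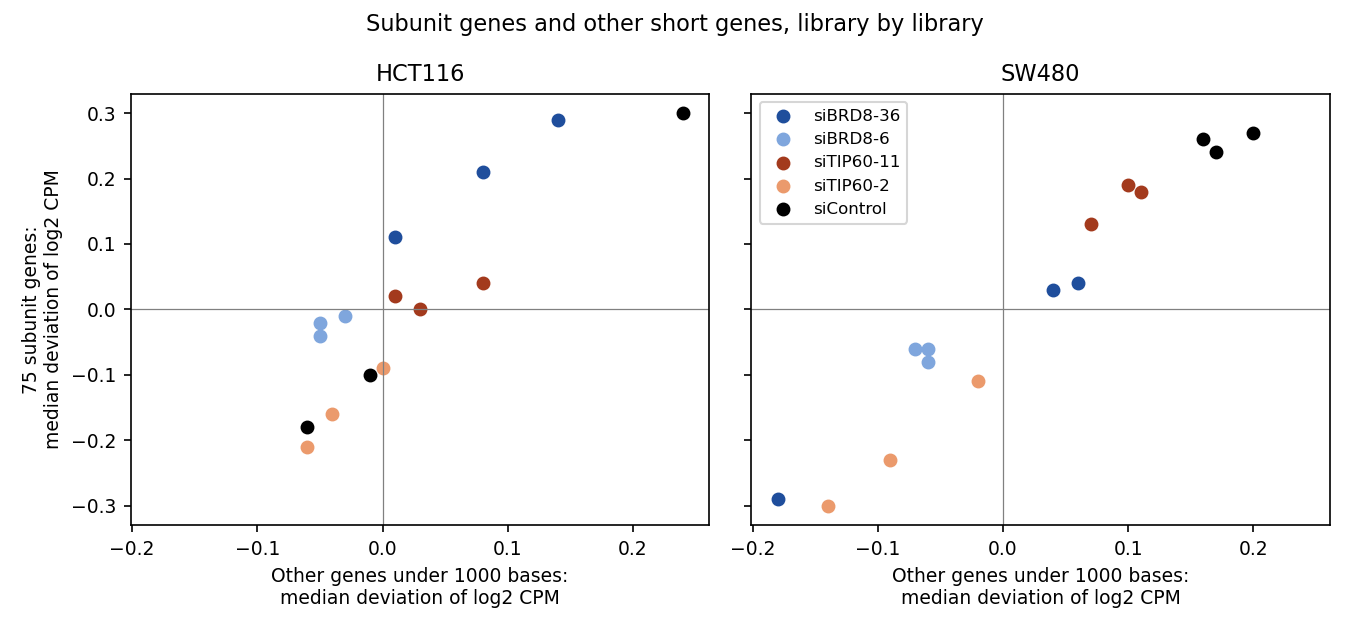
Median deviation of log2 CPM from the mean of the line for the 75 subunit genes (vertical axis) and for other genes under 1000 bases (horizontal axis); each point is 1 library and colours mark the siRNA. Libraries high in short genes are high in subunit genes in both panels, with HCT116 siControl replicate 2 at 0.24 and 0.30 apart from the other controls.

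In HCT116 fewer members were called. BRD8 depletion raised 7 of the 75 members and lowered 2, beside 12.8% of 15919 genes called higher and 12.8% lower, and the median of the members was 0.06. With length-dependent offsets 20 members were higher and 3 lower. ATP5PB, the b subunit of the ATP synthase stalk, had 278.9, 294.5 and 284.9 CPM with siBRD8-36 and 269.2, 287.3 and 284.0 CPM with siBRD8-6, against 206.5, 244.1 and 202.8 CPM with siControl. All 6 depleted libraries were above all controls (log2 0.39 ± 0.0597 and 0.36 ± 0.0597, SE; adjusted p = 9.01e-05). NDUFB10, an accessory subunit of the membrane arm of complex I, had 134.3, 149.9 and 144.1 CPM with siBRD8-36 and 147.5, 145.3 and 154.1 CPM with siBRD8-6, against 100.8, 141.6 and 102.6 CPM with siControl (log2 0.32 and 0.38, adjusted p = 0.0264). Control replicate 2 lay among the depleted libraries of NDUFB10, and without control replicate 1 the adjusted p was 0.13. ATP5MC1 rose by log2 0.57 and 0.26 (adjusted p = 0.0112), and without control replicate 1 its adjusted p was 0.0762. NDUFS1 (0.26 and 0.17), NDUFA6 (0.28 and 0.21) and NDUFV3 (0.18 and 0.21), all of complex I, were higher by smaller log2 changes, and each of these calls was lost without at least 1 library.

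Lower in HCT116 after BRD8 depletion were COX8A and NDUFV2. COX8A, the ubiquitous subunit VIII of complex IV, had 110.4, 113.5 and 127.3 CPM with siBRD8-36 and 119.3, 122.9 and 134.0 CPM with siBRD8-6, against 147.0, 221.2 and 151.1 CPM with siControl. Its log2 changes were -0.56 and -0.46 (adjusted p = 0.0134). The mean change of COX8A was -0.51, against -0.30 without control replicate 2, and without siBRD8-6 replicate 1 the adjusted p was 0.0513. In SW480 COX8A also fell, by log2 values of -0.73 and -0.43 (adjusted p = 0.0108). NDUFV2, an iron-sulphur subunit of the NADH-oxidising module, changed by -0.34 and -0.25 in HCT116 (adjusted p = 0.0272; 0.14 without control replicate 2) and by -0.51 and -0.40 in SW480 (adjusted p = 6.92e-05).

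TIP60 depletion in HCT116 raised 2 members and lowered 6, beside 14.1% of genes called higher and 14.5% lower, with a member median of -0.10. With length-dependent offsets 9 were higher and 8 lower. NDUFA10, an accessory subunit of complex I, was higher, at 127.5, 122.4 and 125.9 CPM with siTIP60-11 and 120.4, 128.0 and 122.6 CPM with siTIP60-2, against 98.38, 106.8 and 98.6 CPM with siControl (log2 0.31 and 0.29, adjusted p = 0.000114). ATP5MF, the f subunit of complex V, had 121.6, 130.0 and 124.6 CPM with siTIP60-11 and 108.1, 106.2 and 113.8 CPM with siTIP60-2, against 80.7, 100.7 and 84.44 CPM with siControl (log2 0.50 and 0.31, adjusted p = 0.00984). Exons of ATP5MF overlap those of PTCD1 and of a readthrough gene on the same strand. Every depleted library of both genes was above every control; without control replicate 1 the adjusted p of ATP5MF was 0.0515. Among the lower members, UQCRC2, a core protein of complex III, had 170.6, 175.6 and 168.4 CPM with siTIP60-11 and 168.4, 167.8 and 167.3 CPM with siTIP60-2, against 200.8, 223.9 and 212.7 CPM with siControl (log2 -0.31 and -0.34, adjusted p = 4.3e-05). NDUFS4, an accessory subunit of the peripheral arm, had 41.89, 47.25 and 42.25 CPM with siTIP60-11 and 37.09, 38.42 and 37.24 CPM with siTIP60-2, against 54.02, 71.52 and 50.05 CPM with siControl (log2 -0.41 and -0.63, adjusted p = 0.00275). NDUFB11 (log2 -0.63 and -0.43), NDUFA5 (-0.27 and -0.64), COX7A2L (-0.27 and -0.65) and NDUFB10 (-0.29 and -0.50) were also lower. Of these, the calls of NDUFA5, COX7A2L and NDUFB10 were lost without at least 1 library; NDUFA5 also shares reads with pseudogenes.

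The HCT116 counts rested on the controls. Without siControl replicate 2, which stood apart, 22 members were higher and 1 lower after BRD8 depletion, with a median of 0.22, and 13 were higher and 4 lower after TIP60 depletion, with a median of 0.07. The share of all genes called without this library was not counted, so whether the rise was particular to the members is not known. The fit kept replicate 2 of the depleted groups, which had the highest member share of each group. Without SW480 siBRD8-36 replicate 3, 36 members were lower after BRD8 depletion in SW480, with a median of -0.25. The HCT116 medians of 0.06 and -0.10 were smaller than the spread of the 3 controls, whose own member medians had an SD of 0.267 (log2), against 0.0241 in SW480.

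Some members were called for the same target in both lines. The overlap was limited by the HCT116 calls, 7 higher and 2 lower after BRD8 and 2 higher and 6 lower after TIP60 depletion. The share of all genes called in both lines was not counted. After TIP60 depletion, UQCRC2, COX7A2L, NDUFB10 and NDUFB11 were lower in both. UQCRC2 in SW480 had 82.09, 86.32 and 84.61 CPM with siTIP60-11 and 73.54, 74.9 and 82.21 CPM with siTIP60-2, against 119.9, 122.6 and 122.1 CPM with siControl (log2 -0.53 and -0.66, adjusted p = 3.39e-07). NDUFB10 in SW480 had 71.35, 77.2 and 74.63 CPM with siTIP60-11 and 64.22, 61.27 and 69.87 CPM with siTIP60-2, against 85.27, 96.98 and 89.05 CPM with siControl (log2 -0.28 and -0.47, adjusted p = 0.00694). NDUFB11 in SW480 changed by -0.50 and -0.33 (adjusted p = 0.000736). After BRD8 depletion, COX8A and NDUFV2 were lower in both lines. NDUFS1 and ATP5PB were higher in HCT116 and lower in SW480, NDUFS1 by only -0.16 and -0.15 in SW480: ATP5PB in SW480 had 238.2, 244.3 and 204.4 CPM with siBRD8-36 and 246.5, 243.8 and 217.9 CPM with siBRD8-6, against 306.9, 301.2 and 303.4 CPM with siControl (log2 -0.41 and -0.37, adjusted p = 4.93e-05).

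Whether the responses differed between the lines was tested as an interaction, with the 30 libraries in 1 model. The BRD8 response was higher in HCT116 than in SW480 for 35 members and lower for 0 in edgeR (also 0 at an unadjusted p of 0.05), beside 34.4% of 17411 genes called in either direction, with a member median of 0.30. ATP5PB differed by log2 0.70 ± 0.0766 (SE; adjusted p = 7.18e-09), UQCRC2 by 0.70 ± 0.0657 (adjusted p = 2.91e-10) and COX7B by 0.73 ± 0.158 (adjusted p = 0.000783). COX6B2 differed by 1.51 ± 0.400 (adjusted p = 0.00326) at its low level. The TIP60 response was higher in HCT116 for 13 members and lower for 1, beside 31.1% of genes called, a share that the 14 of 75 do not reach. NDUFA9 (log2 0.50), COX7B (0.47), ATP5MC1 (0.46) and ATP5MF (0.42) had the highest values. Without HCT116 siControl replicate 3 the adjusted p was 0.0546 for NDUFA9 and 0.0885 for COX7B, and without replicate 1 it was 0.0873 for COX7B; without replicate 2 the COX7B value was 0.71. Without HCT116 siControl replicate 2 the 2 counts were 61 and 45. Without HCT116 siControl replicate 3 the TIP60 count was 8.

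BRD8 and TIP60 depletion were compared directly within each line; both are set against the same controls, so their own changes are given side by side above. In HCT116, 26 members were higher after BRD8 than after TIP60 depletion and 6 lower, beside 61.8% of all genes called. NDUFB10 led, by log2 0.75 ± 0.073 (SE; adjusted p = 2.67e-07), followed by NDUFA5 (0.61), NDUFS4 (0.51) and ATP5F1D (0.50). In SW480, 9 members were higher and 21 lower, beside 59.9% of genes. NDUFB10 was again higher after BRD8 depletion, at 112.3, 109.3 and 88.76 CPM with siBRD8-36 and 92.54, 92.47 and 96.16 CPM with siBRD8-6, against the 61.27 to 77.2 CPM of the TIP60 siRNAs (log2 0.50, adjusted p = 6.59e-09). ATP5F1D was higher by 0.51 (adjusted p = 1.35e-07). COX6B2 was lower after BRD8 than after TIP60 depletion by log2 -2.06 (adjusted p = 6.98e-08), with 2.233, 2.895 and 2.837 CPM with siTIP60-11 and 3.568, 4.618 and 3.526 CPM with siTIP60-2 above every BRD8-depleted library, and UQCRC2 by -0.56 (adjusted p = 7.16e-11).

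The 2 siRNAs of a target differed strongly for single members. UQCRC2 (chr16:21952660-21983660, plus strand, GENCODE 29) had 106.0, 100.3 and 105.0 CPM with siBRD8-36 in HCT116, against 256.8, 247.2 and 255.9 CPM with siBRD8-6 and 200.8, 223.9 and 212.7 CPM with siControl. In SW480 it had 25.98, 29.2 and 25.13 CPM with siBRD8-36, against 116.2, 112.5 and 105.5 CPM with siBRD8-6 and 119.9, 122.6 and 122.1 CPM with siControl. The siBRD8-36 libraries were thus the lowest of all groups in both lines. The log2 difference, siBRD8-36 minus siBRD8-6, was -1.29 ± 0.0482 in HCT116 (SE; adjusted p = 7.41e-14) and -2.06 ± 0.0704 in SW480 (adjusted p = 3.45e-19). NDUFA13 (GRIM-19, an accessory subunit of complex I; chr19:19515736-19529054, plus strand) went the other way: it had 126.6, 190.4 and 142.3 CPM with siBRD8-36 in HCT116, against 69.49, 68.63 and 69.93 CPM with siBRD8-6. In SW480 it had 128.8, 133.9 and 102.4 CPM with siBRD8-36, against 57.21, 58.75 and 63.8 CPM with siBRD8-6. With siControl it had 136.8, 243.2 and 122.4 CPM in HCT116 and 146.2, 168.4 and 148.4 CPM in SW480. Its differences were 1.14 ± 0.235 (adjusted p = 0.00153) and 1.02 ± 0.103 (adjusted p = 2.07e-07). Exons of NDUFA13 overlap those of YJEFN3 on the same strand. NDUFA13 was called lower after BRD8 depletion in SW480, where its log2 changes were -0.34 with siBRD8-36 and -1.36 with siBRD8-6 (adjusted p = 0.0117), and was not called in HCT116; UQCRC2 was not called for BRD8 in either line. The cause of these differences between siRNAs was not tested.

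**Figure D4:**
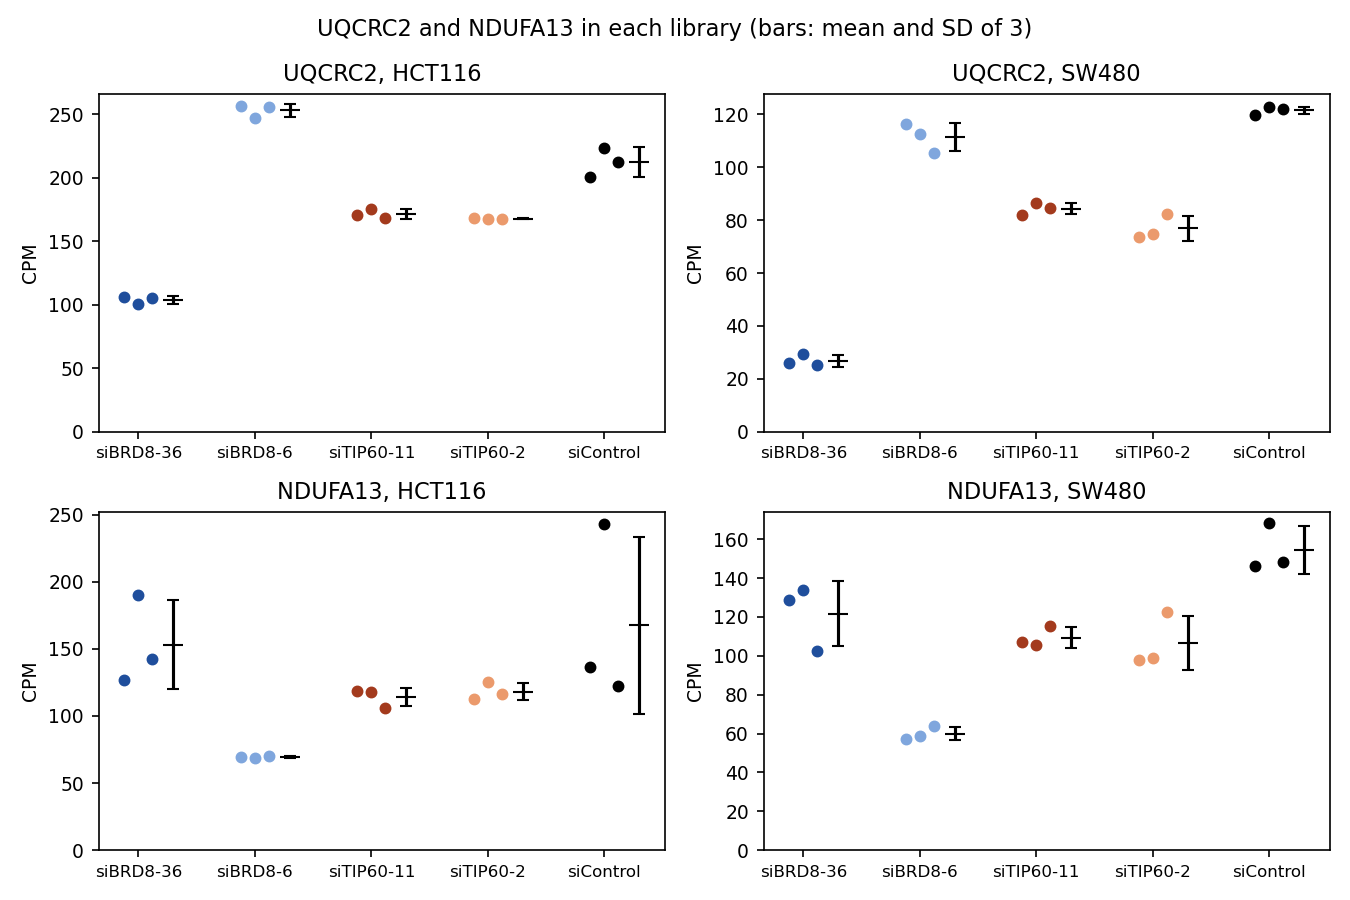
CPM after TMM scaling of UQCRC2 (top) and NDUFA13 (bottom) in HCT116 and SW480 (vertical axis, from 0) by siRNA (horizontal axis); points are libraries and bars the mean and SD of 3. UQCRC2 is lowest with siBRD8-36, at 104 and 26.8 CPM on average, and NDUFA13 with siBRD8-6, at 69.3 and 59.9 CPM.

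Between the BRD8 siRNAs, 28 members were higher and 8 lower with siBRD8-36 than with siBRD8-6 in HCT116, beside 56.7% of all genes called, and 10 were higher and 10 lower in SW480, beside 52.8%. NDUFA10 was lower with siBRD8-36 in HCT116 by log2 -0.86 (adjusted p = 2.75e-11) and ATP5MPL higher by 0.83 (adjusted p = 9.24e-06). In SW480, NDUFA12 was lower by -0.56 and ATP5PD by -0.53. Without SW480 siBRD8-36 replicate 3, 35 members differed there in place of 20.

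Between the TIP60 siRNAs the members differed mostly one way. In SW480, 56 members were higher with siTIP60-11 than with siTIP60-2 and 0 lower in edgeR (1 at an unadjusted p of 0.05), beside 45.3% of all genes called in either direction. Set singly against siControl, siTIP60-11 lowered 22 members and raised 9 in SW480 (median -0.08), beside 24.2% of all genes lower and 23.4% higher. With siTIP60-2, 63 were lower, including all 17 members of complex V, and 1 was higher (median -0.47), beside 24.4% of all genes lower and 25.1% higher. The other genes under 1000 bases also had a higher median with siTIP60-11, by log2 0.19, and relative to the length curve the median difference of the members was 0.19 in place of 0.34. ATP5MC1 had 61.57, 75.7 and 72.29 CPM with siTIP60-11, against 35.79, 30.75 and 38.13 CPM with siTIP60-2 (log2 1.00 ± 0.119, SE; adjusted p = 1.95e-06), and 67.01, 68.31 and 69.03 CPM with siControl. ATP5MC2, another gene of subunit c, had 294.7, 293.5 and 322.9 CPM with siTIP60-11, against 167.9, 170.1 and 184.0 CPM with siTIP60-2 (log2 0.80, adjusted p = 3.21e-09). NDUFA12 had 267.3, 265.5 and 269.8 CPM with siTIP60-11, against 135.1, 132.0 and 155.1 CPM with siTIP60-2 (log2 0.93, adjusted p = 2.24e-11). In these genes the siTIP60-11 libraries were near or above the controls and the siTIP60-2 libraries below them. NDUFB1 differed by 0.90 (adjusted p = 6.03e-07).

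In HCT116, 21 members were higher with siTIP60-11 than with siTIP60-2 and 1 lower, beside 46.0% of genes. ATP5MC2 had 183.4, 186.0 and 171.8 CPM with siTIP60-11, against 92.79, 115.2 and 108.2 CPM with siTIP60-2 (log2 0.78, adjusted p = 8.13e-05), and ATP5MC1 110.2, 111.1 and 111.9 CPM, against 58.88, 70.54 and 69.1 CPM (log2 0.75, adjusted p = 1.86e-07). NDUFS3, a core subunit of complex I, differed by 0.74 (adjusted p = 4.13e-05). NDUFB1 differed by 0.57 with an adjusted p of 0.0442, which did not hold without any 1 of the 6 libraries concerned. The third gene of subunit c, ATP5MC3, changed by -0.06 with siTIP60-11 and -0.54 with siTIP60-2 in HCT116 and by 0.04 and -0.68 in SW480, and was not called for TIP60 in either line.

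The lines also differed without depletion. In siControl cells, 23 members were higher in HCT116 than in SW480 and 36 lower, beside 78.5% of all genes called. NDUFA12, an accessory subunit of complex I, averaged 113.9 ± 8.58 TPM in HCT116 and 486 ± 9.28 TPM in SW480 (SD, n = 3 each; log2 difference in the count fit -2.39 ± 0.0891, SE; adjusted p = 1.66e-21). ATP5MF averaged 336.4 ± 13.8 TPM in HCT116 and 995 ± 34.3 TPM in SW480 (log2 -1.86, adjusted p = 3.87e-16). NDUFA9 averaged 157.8 ± 19.6 TPM in HCT116 and 476.4 ± 18.4 TPM in SW480 (log2 -1.86, adjusted p = 1.99e-12), and NDUFA4 315.4 ± 13 TPM in HCT116 and 895.6 ± 37.2 TPM in SW480 (log2 -1.75, adjusted p = 3.84e-15). In these 4 genes the lines did not overlap. NDUFB8 was the member most in excess in HCT116, at 336.7 ± 32.5 TPM in HCT116 and 109.7 ± 1.96 TPM in SW480 (log2 1.34, adjusted p = 2.04e-11). By complex, the median log2 difference was -0.20 for complex I, 0.18 for complex III, -0.46 for complex IV and -0.14 for complex V. Relative to the length curve these medians were 0.06, 0.12, -0.24 and 0.03. The median of all members was -0.18, against 0.08 over all genes, and 0.03 relative to the curve. Below 0 lay 48 members, and below the curve 37. Subunits of 1 complex lay on both sides of 0. Any batch that differed by line cannot be told apart from the line.

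**Figure D5:**
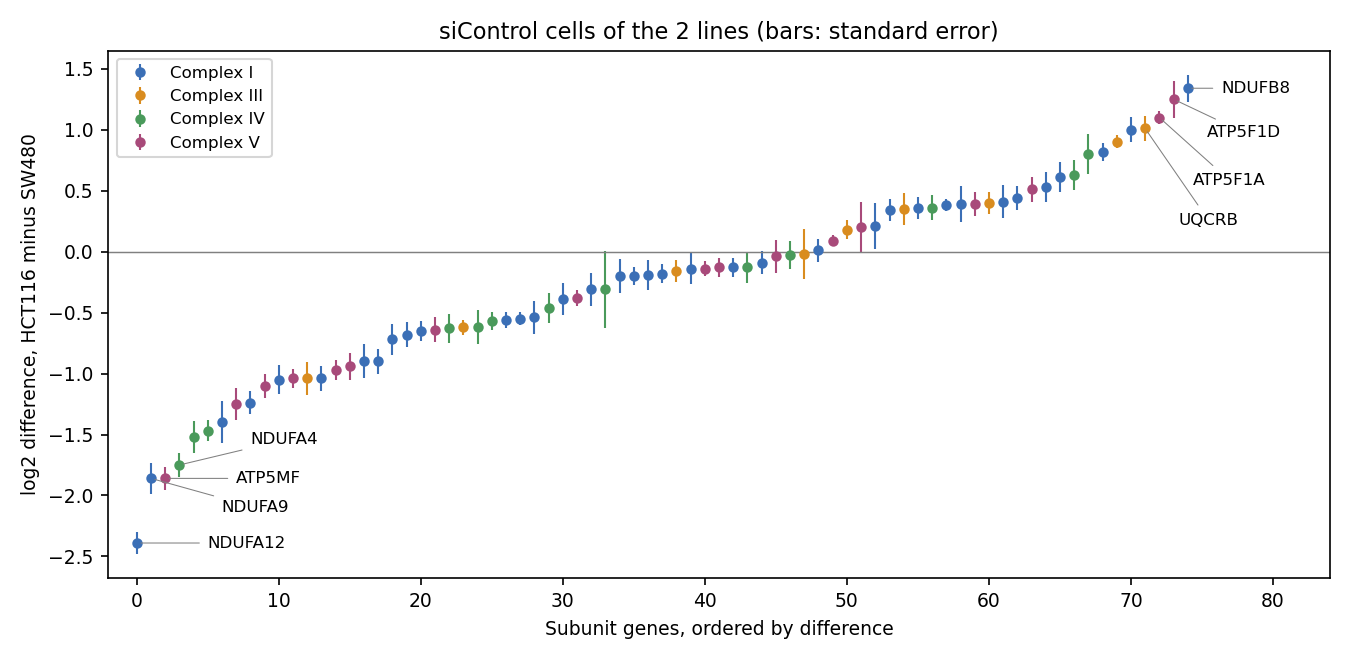
Log2 difference of each subunit gene between siControl cells, HCT116 minus SW480 (vertical axis), with genes ordered by difference (horizontal axis); points are coloured by complex and bars are standard errors. Differences lie between -2.39 (NDUFA12) and 1.34 (NDUFB8), and every complex has genes on both sides of 0.

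The promoter motifs were also counted among the members that fell, with no test of the difference. Of the 36 matched members that were lower after BRD8 depletion in SW480, 8 (22.2%) held the NRF1 letters, against 6 of the other 26 (23.1%). The ETS letters stood in 8 of the 36 (22.2%) and in 3 of the 26 (11.5%), and the YY1 letters in 5 of the 36 (13.9%) and in 6 of the 26 (23.1%).

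The counts that follow for genes that work beside the subunits stand beside the all-gene shares given above, for higher and lower calls: 12.8% and 12.8% after BRD8 and 14.1% and 14.5% after TIP60 depletion in HCT116, and 13.3% and 14.5% after BRD8 and 11.8% and 12.4% after TIP60 depletion in SW480. Of the 4 complex II subunit genes, 2 were lower after BRD8 depletion in SW480 (SDHB and SDHD), and SDHA and SDHC were higher after TIP60 depletion in HCT116. Of 6 carriers and subunits that the naming pattern misses, 5 were lower after BRD8 depletion in SW480, among them CYCS (cytochrome c; log2 -1.04 and -0.60) and CYC1 (cytochrome c1; -0.28 and -0.31), and 3 were lower after TIP60 depletion, with CYC1 at -0.59 and -0.58. Of 22 complex IV assembly genes, 6 were lower after BRD8 depletion in SW480, and 7 were higher after TIP60 depletion in HCT116, led by COA7 (log2 0.85 and 0.63). Of 6 complex III assembly genes, 1 was higher and 2 lower after BRD8 depletion in HCT116. LYRM7, which guards the Rieske protein before its insertion into complex III, was among those lower (log2 -1.39 and -0.88, adjusted p = 2.57e-08). Of 15 complex I assembly genes, 3 were higher and 3 lower after TIP60 depletion in SW480, and 1 higher and 2 lower after BRD8 depletion there. TMEM126B, one of them, was lower after TIP60 depletion in SW480 (log2 -0.71 and -1.95, adjusted p = 2.3e-07) and after BRD8 depletion there (-0.50 and -0.51).

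Of 77 mitochondrial ribosomal protein genes, 28 were lower after BRD8 depletion in SW480, and 26 were lower after TIP60 depletion. In HCT116, 9 of them were higher and 3 lower after BRD8 depletion, neither above the all-gene share of 12.8%, and 21 were higher and 4 lower after TIP60 depletion. MRPL48 (log2 -1.84 and -0.61) and MRPL47 (-1.42 and -0.65) were among those lower after BRD8 depletion in SW480. Of the 13 mRNAs of mitochondrial DNA, which encode the remaining subunits, 11 were higher after TIP60 depletion in HCT116 (median log2 0.83, MT-CYB at 1.07 and 0.90), and 3 were higher after BRD8 depletion there (median 0.46). In replicates 1, 2 and 3 these mRNAs took 2%, 1.43% and 2.06% of the counts with siBRD8-36 in HCT116. They took 1.97%, 1.41% and 1.92% with siBRD8-6, and 1.39%, 1.46% and 1.39% with siControl. In SW480, 3 of them were lower after BRD8 depletion (median -0.12), and 1 was higher after TIP60 depletion (median 0.34).

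Regulators of mitochondrial biogenesis moved in both directions. Of 12 tested in HCT116, 5 were higher and 3 lower after BRD8 and 3 higher and 3 lower after TIP60 depletion. Of 13 tested in SW480, 2 were higher and 2 lower after BRD8 and 1 higher and 1 lower after TIP60 depletion. Of the regulators called higher, only PPARGC1B is named below. TFAM, which packages and transcribes mitochondrial DNA, was lower after BRD8 depletion in both lines, by log2 values of -0.41 and -0.76 in HCT116 (adjusted p = 1.02e-05) and of -0.56 and -0.91 in SW480 (adjusted p = 1.2e-07). PPARGC1B, a coactivator of NRF1, was higher after BRD8 depletion in both lines (log2 0.62 and 0.97 in HCT116, 0.75 and 0.56 in SW480). GABPA, the DNA-binding subunit of GABP, was lower in HCT116 after BRD8 depletion (log2 -0.59 and -0.39), and GABPB1, its partner, was lower in SW480 after BRD8 depletion (-0.57 and -0.42) and in both lines after TIP60 depletion. NRF1 itself was lower after BRD8 depletion in HCT116 (-0.51 and -0.25) and was not called in the other comparisons. Of the 12 citric acid cycle genes, 2 were higher and 0 lower after BRD8 and 3 higher and 1 lower after TIP60 depletion in HCT116. In SW480, 2 were higher and 4 lower after BRD8 and 2 higher and 2 lower after TIP60 depletion. Among them OGDH, a subunit of the 2-oxoglutarate dehydrogenase complex, was higher in all 4 target comparisons. It rose most after BRD8 depletion in HCT116 (log2 0.69 and 0.76, adjusted p = 1.22e-08).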

How the data were processed

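The authors deposited, per the file headers, an expected count, a TPM value and an effective length (in bases) for each gene of each library. An expected count divides reads that match several genes between them and need not be whole. The submitters' processing notes name the hg38 build with RSEM 1.3.3, STAR 2.7.3a and Trimmomatic 0.33. Per the labels' protocols, a directional kit was used on 100 ng RNA and 60 bases were read from 1 end. Which annotation was counted, and with what strand setting, is not given in the sources used here.

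Expected counts were rounded and fitted per line (15 libraries each) with edgeR 4.0.16 in R 4.3.3, using its quasi-likelihood test (robust, TMM scaling, its expression filter); all 75 members passed the filter in every fit. Lines were compared in a fit of all 30 libraries. P-values were adjusted by Benjamini-Hochberg over all genes tested. Standard errors are the log2 change over the root of its F. Alternatives were DESeq2 1.42.0, its size factors in edgeR, other filters, limma 3.58.1 on log2(TPM + 1), a replicate block, length adjustments and each library left out. The fit was run on simulated data with 1 spread for all genes and no shift in library make-up. That run cannot speak to such shifts in these libraries. Over genes with at least 20 summed counts, replicate pairs differed by a chi-square per gene of 1.47 to 21.3, so none was a duplicate.

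The members and the lists were chosen with earlier results of these data known. Named members were BRD8 and KAT5, up to 8 called members per direction and target comparison by the smaller change of the 2 siRNAs, up to 4 with the largest change per difference, the highest and lowest of each complex, the isoform sets, the 3 on each side of the TPM level of 1, and up to 3 called genes of the other lists per comparison. Other genes named were chosen after their values were seen, and so were the length bins. Gene coordinates are from GENCODE 29 on GRCh38, the same assembly as hg38; promoters are RefSeq's on GRCh38.p14. ATP5PDP4, listed at 2.07 TPM, was counted as a pseudogene. Values of 1 member are not reported here, though it is in the counts and medians.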

Additional observations from a re-analysis of the deposited data

Results flagged for a closer look

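The response to BRD8 depletion differed between HCT116 and SW480 by the interaction term in 35 members, and the response to TIP60 depletion in 14. Of all 17411 genes tested, 34.4% and 31.1% were called, and the 14 of 75 do not reach the latter share. Relative to the length curve, the member median was 0.23 in place of 0.30 for BRD8, and 0.09 in place of 0.14 for TIP60. For BRD8 depletion the log2 differences, HCT116 minus SW480, were 1.51 for COX6B2, 0.73 for COX7B, 0.70 for ATP5PB and 0.70 for UQCRC2. For TIP60 depletion they were 0.50 for NDUFA9, 0.47 for COX7B, 0.46 for ATP5MC1 and 0.42 for ATP5MF. Without HCT116 siControl replicate 2, which stood apart from the other controls, the counts of 35 and 14 became 61 and 45. The share of all genes called in that fit was not counted. It kept replicate 2 of the other HCT116 groups.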

How the results depend on the processing

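Depth limits COX6B2 and UQCRHL, with as few as 5 counts in a library for COX6B2. The 70 gene-level results were picked as the largest called changes in these data, which favours keeping a call. Of them, 49 kept their call and direction under all alternatives, 17 lost it without at least 1 library and 11 under another setting. None of 1156 pairs of result and setting reversed (0). In SW480 after BRD8 depletion, 41 members lower became 8 with limma on log2(TPM + 1) and 20 with length-dependent offsets, and 1 higher became 0 with DESeq2, 0 with the replicate block, 6 with limma and 5 with length-dependent offsets; the median of -0.31 became -0.04 with limma, -0.13 with length-dependent offsets, -0.10 with the length adjustment and -0.23 without members that had a non-whole value in more than 10% of libraries. After TIP60 depletion there, 19 lower became 8 and 0 higher became 2 with limma and also 2 with length-dependent offsets; the median of -0.26 became -0.06, -0.09, -0.08 and -0.17 in the same order. The 0 higher was also 0 in DESeq2. Length-dependent offsets, added after seeing the data, gave 20 members higher after BRD8 and 9 after TIP60 depletion in HCT116, 34 differing between the TIP60 siRNAs in HCT116, 32 between the BRD8 siRNAs in SW480, and 27 whose TIP60 response differed between lines (22 without a filter). The BRD8 response differed in 23 with limma. TPM divides by length by construction; causes were otherwise not tested. Same-number replicates of different groups correlated weakly: 2 of 30 such pairs in HCT116 and 1 of 30 in SW480 lay above 0.1. Yet 13 of 15 HCT116 libraries correlated best with their own number, against 4 of 15 in SW480. Pairing by number in HCT116 thus remains possible, and the main fit did not model it. The replicate block among the alternatives did.

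With each library left out, ranges were as follows. After BRD8 depletion in HCT116, 3 to 22 members were higher, 0 to 4 lower, with medians of -0.04 to 0.22; after TIP60 depletion, 1 to 13 higher, 3 to 13 lower, medians of -0.18 to 0.07. In SW480, 0 to 1 were higher and 31 to 44 lower after BRD8 depletion (medians -0.35 to -0.25), and 0 higher and 17 to 20 lower after TIP60 depletion (medians -0.29 to -0.24). Members differing between targets numbered 28 to 33 in HCT116 and 29 to 41 in SW480, between BRD8 siRNAs 31 to 38 and 13 to 35, between TIP60 siRNAs 14 to 20 and 50 to 60, between line responses 27 to 61 (BRD8) and 8 to 45 (TIP60), and between control lines 56 to 64. Each group kept at least 2 libraries.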
